A study of Mus musculus with 18 samples.

Results

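RNA-seq was used to follow 10 genes of the AP-1 and immediate early response, *Fos*, *Fosb*, *Fosl1*, *Fosl2*, *Jun*, *Junb*, *Jund*, *Egr1*, *Atf3* and *Myc*, in differentiating myoblasts of the mouse. They were chosen by name, with earlier results of these data known. All 10 were found by their Ensembl identifiers among the 19153 genes listed. The cells were immortalized myoblasts from a p53 knockout mouse, so that every group lacked p53. LAP2α knockout (KO) cells had received a Cas9 plasmid with a guide against *Lap2α*, and wildtype (WT) cells had received the same plasmid without a guide. LAP2α is an isoform of the *Tmpo* gene, so that these gene-level values do not check the knockout. Both were populations sorted in bulk for EGFP rather than clones. Each genotype was harvested while proliferating below confluence (Prol) and at day 0, near confluence (D0), both in medium with 20% fetal calf serum, and at day 2 (D2), after 48 h in 5% serum. Each of the 6 groups held 3 libraries, numbered 1 to 3. Whether these came from separate cultures is not given in the labels, so p-values measure the spread between libraries only.

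AP-1 is a dimer of basic leucine zipper proteins. Fos proteins bind DNA only as partners of Jun proteins, while Jun proteins can also pair with each other or with ATF proteins. Serum growth factors act through the ERK MAP kinases on factors such as SRF and ELK1, and so induce *Fos*, *Egr1* and other immediate early genes within minutes, without new protein synthesis. In cultured myoblasts serum withdrawal is the usual signal for cell cycle exit and fusion, and forced AP-1 or Myc activity is known to hold back muscle differentiation.

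On the move from D0 to D2, *Fosl1* and *Myc* fell in both genotypes, and the other 8 genes did not pass the test in either. *Fosl1* fell from 64.0 ± 39.3 to 13.0 ± 12.2 CPM (expected counts scaled to a common library total) in WT and from 81.2 ± 30.2 to 21.8 ± 25.7 CPM in KO (SD, n = 3). *Myc* fell from 124.8 ± 34.5 to 62.4 ± 33.4 CPM in WT and from 144.2 ± 34.5 to 67.6 ± 34.4 CPM in KO. A change was called at a Benjamini-Hochberg adjusted p under 0.05 in limma over 17672 genes, in which 26% of all genes were called in WT D2/D0 and 28.3% in KO D2/D0. The 2 of 10 called here were near these shares. Called as lower were 11.3% of all genes in WT and 12.9% in KO. In a fit of all 18 libraries with the library number as a block shared by all groups, 46% of all genes were called in KO D2/D0. The same 2 members were called there. Serum, time and cell state changed together between D0 and D2 and cannot be told apart, nor can fewer cells of a type and less RNA per cell in these bulk libraries.

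The libraries held 26437823 to 41619016 expected counts (median 32939620), and every member had at least 32 expected counts in every library. Of 6 myoblast markers 5 were listed (*Pax7* was not), and their summed level was 91.8 to 225.8 CPM at Prol and D0 and 303.2 to 593.9 CPM at D2. *Myod1*, *Des* and *Cdh15* carried the higher sum, while *Met* was at 59.2 to 187.0 CPM before and 32.5 to 90.1 CPM at D2, and *Myf5* at 20.5 to 37.1 and 11.6 to 29.6 CPM. All 6 markers of differentiated muscle were listed, and summed to 2.29 to 28.4 CPM at Prol and D0. At D2 they summed to 2463 to 5048 CPM in WT and to 1466 to 1866 CPM in KO. Of 6 mesenchymal markers 5 were listed (*Adipoq* was not), with sums of 36.1 to 109.0 CPM at Prol and D0 and 133.6 to 344.9 CPM at D2. Endothelial (3 of 4 listed, without *Cdh5*) and leukocyte markers (1 of 4 listed, without *Ptprc*, *Adgre1* and *Lyz2*) stayed below 3.3 CPM in sum. The part of the muscle and mesenchymal markers in the changes below was not tested.

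The 2 D2 libraries with the number 1, 1 of each genotype, stood apart from the other D2 libraries in these genes. For all 10 members, in WT as in KO, library 1 held the highest of the 3 D2 values, by 1.86 to 7.34 times the mean of libraries 2 and 3. Over the 17672 genes tested, library 1 was highest in 45.1% at WT D2, in 40.7% at KO D2 and in 34.6% in both. The scaling factors of the library totals, which divide the CPM, were 0.909 and 0.931 in these 2 libraries against 1.11 to 1.18 in the other 4 at D2. The inducible heat shock gene *Hspa1b* was at 94.2 and 123.5 CPM in these 2 libraries against 11.4 to 26.4 CPM in the other 4 at D2. The summed RNA handling list (*Hspa1a*, *Hspa1b*, *Hspb1*, *Gapdh* and *Actb*, all 5 listed) was at 6878 and 6777 CPM against 2626 to 3573 CPM. It was mostly *Actb* and *Gapdh*, and was at 4714 to 11330 CPM in the Prol and D0 libraries. By this sum D2 libraries 2 and 3 lay below the earlier range, while library 1 lay inside it. *Hspb1* alone barely separated library 1 from library 3 at KO D2. Differentiated muscle markers were also highest in WT library 1 (5048 against 2463 and 2694 CPM), but not in KO (1725 against 1866 and 1466 CPM). The mesenchymal sum was highest in library 1 in both, at 223.1 against 133.6 and 149.6 CPM in WT and at 344.9 against 311.4 and 146.8 CPM in KO. So was the myoblast sum, at 593.9 against 384.1 and 382.6 CPM in WT and at 314.9 against 303.2 and 307.8 CPM in KO. The part of any of these in the levels was not tested. The change of each member from D0 to D2 is therefore given with all libraries and again without both D2 libraries 1, an alternative chosen after seeing the data. Since library 1 was the highest for every member, leaving it out lowers each D2 mean. The direction of that shift was fixed in advance, and p-values there are not a test of it. In that setting 28% of all genes were called in WT D2/D0 (13.3% as lower), 30.4% in KO D2/D0 (14.3%), 35% in WT D2/Prol (17.3%) and 35.6% in KO D2/Prol (17%).

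**Figure D1:**
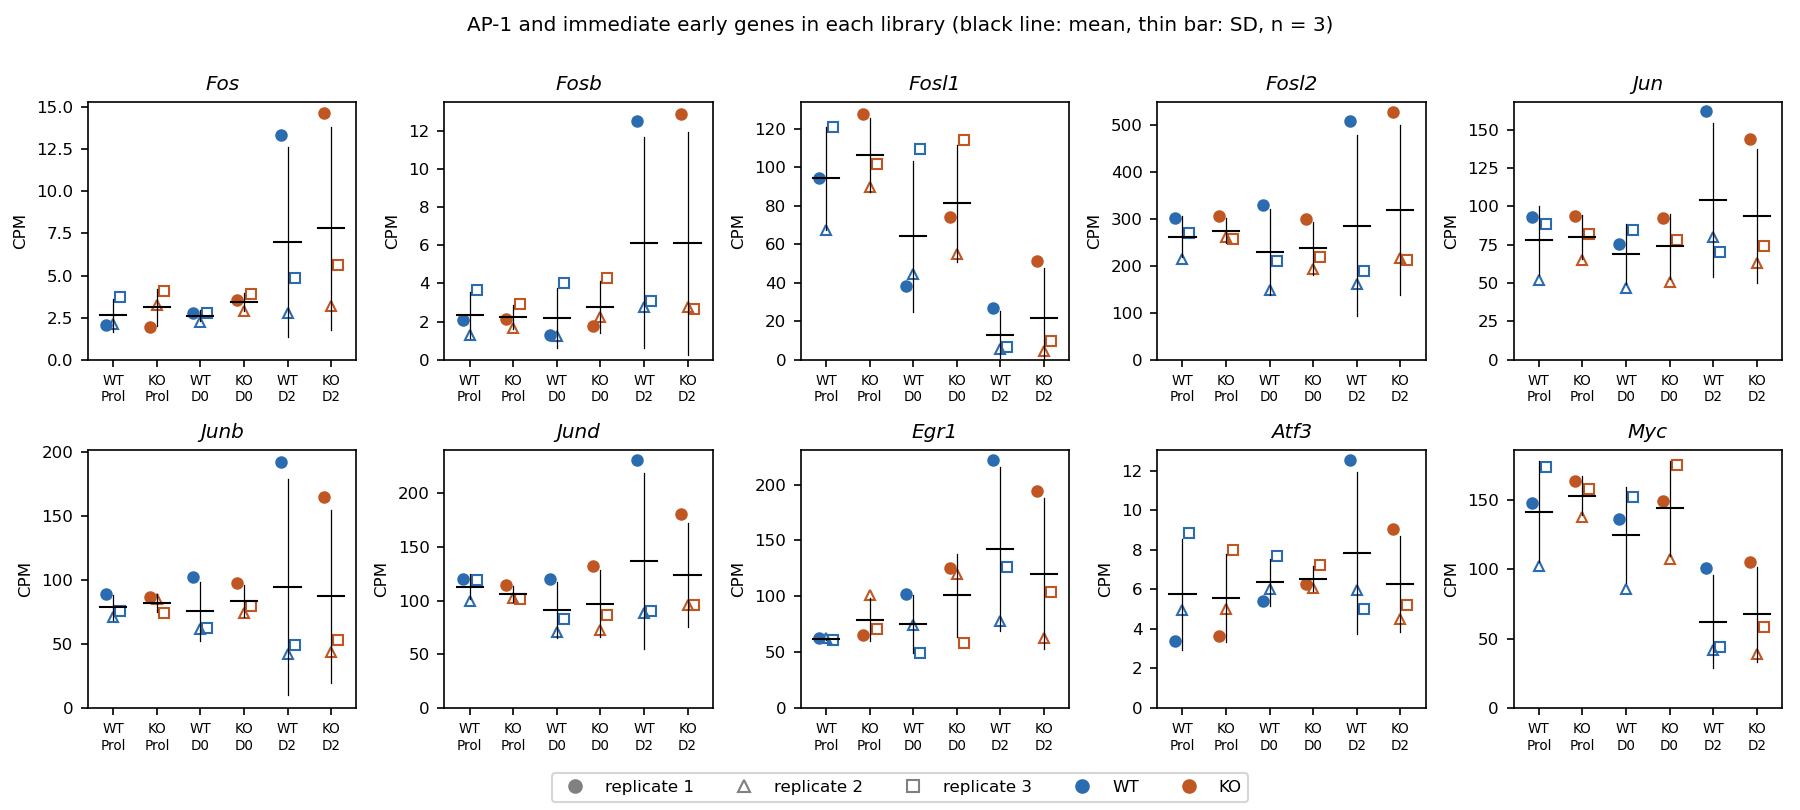
Level of each of the 10 genes in every library, in CPM on linear axes from 0, with WT in blue, KO in orange, filled circles for replicate 1, and the group mean (line) and SD (bar, n = 3, not drawn below 0). *Fosl1* sits at 38.5 to 127.4 CPM at Prol and D0 and at 4.39 to 51.3 CPM at D2, and replicate 1 is the highest D2 library in every panel.

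*Fosl1* (ENSMUSG00000024912, chr19:5447547-5455946, plus strand, GRCm38) encodes FRA1, a Fos protein without the strong activation domain of FOS, which ERK signalling induces and stabilises. In WT its level was 94.6, 67.3 and 120.7 CPM at Prol and 38.5, 44.3 and 109.2 CPM at D0 in libraries 1, 2 and 3. At WT D2 it was 27.1, 5.38 and 6.48 CPM. KO libraries held 127.4, 89.7 and 101.9 CPM at Prol, 74.2, 55.0 and 114.3 CPM at D0, and 51.3, 4.39 and 9.57 CPM at D2. Every D2 library lay below every D0 and Prol library of its genotype, a separation in the lower direction seen in 14.5% of all genes in WT D2/D0 and 16.5% in KO D2/D0. The log2 fold change was -2.54 ± 0.73 in WT D2/D0 (SE, limma, adjusted p = 0.0169) and -2.59 ± 0.73 in KO D2/D0 (adjusted p = 0.0141). Compared with Prol, the change was -3.22 in WT (limma, adjusted p = 0.00314) and -3.03 in KO (adjusted p = 0.00455). Without both D2 libraries 1, the highest at D2, the fitted fall was by construction deeper. It was -3.27 in WT D2/D0 (limma, adjusted p = 0.000148) and -3.58 in KO D2/D0 (adjusted p = 6.25e-05).

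Leaving out 1 library ended the D2/D0 call of *Fosl1* in some cases, always with the same direction. In WT this was so without WT D0 library 3 (limma, adjusted p = 0.0925), WT D2 library 2 (0.0734) or WT D2 library 3 (0.070). In KO it was so without KO D0 library 3 (limma, adjusted p = 0.0669), KO D2 library 2 (0.0844) or KO D2 library 3 (0.0516). The calls of *Fosl1* against Prol were kept without any 1 library.

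*Myc* (ENSMUSG00000022346, chr15:61985391-61990374, plus strand) encodes a basic helix-loop-helix factor of growth and ribosome biogenesis, and its transcript responds to serum with some delay after *Fos*. WT libraries held 148.2, 102.4 and 174.3 CPM at Prol, 136.2, 86.0 and 152.2 CPM at D0, and 100.9, 41.9 and 44.2 CPM at D2. KO libraries held 164.2, 137.7 and 158.1 CPM at Prol, 149.2, 107.5 and 175.8 CPM at D0, and 105.5, 38.5 and 58.6 CPM at D2. In WT, D2 library 1 lay above D0 library 2, so that these groups overlapped, while the KO groups did not. The log2 fold change was -1.08 ± 0.38 in WT D2/D0 (SE, limma, adjusted p = 0.0452) and -1.19 ± 0.38 in KO D2/D0 (adjusted p = 0.0273). Against Prol it was -1.27 in WT (limma, adjusted p = 0.0174) and -1.30 in KO (adjusted p = 0.0147), and no D2 library reached the Prol range of its genotype, as for *Fosl1*. A separation of this direction was found in 20.5% of all genes in WT D2/Prol and 22.6% in KO D2/Prol. Without both D2 libraries 1 the values were -1.49 in WT D2/D0 (limma, adjusted p = 0.00202) and -1.57 in KO D2/D0 (adjusted p = 0.00128).

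The WT D2/D0 call of *Myc* was the least stable of these. It was lost on leaving out any of 12 of the 18 libraries, with limma adjusted p from 0.0501 to 0.167, the last without WT D0 library 3. In KO D2/D0 it was lost without KO D0 library 1 or 3 or KO D2 library 2 or 3 (limma, adjusted p = 0.0648 to 0.141). In WT D2/Prol it was lost without WT Prol library 1 or 3 or WT D2 library 2 or 3 (limma, adjusted p = 0.0523 to 0.0795), and in KO D2/Prol without KO D2 library 2 (0.0869). Under a rule of an unadjusted p under 0.05, an absolute log2 fold change over 1.5 and 10 CPM in 1 library, as in the methods of the study, *Fosl1* was called in all 4 comparisons and *Myc* in none. That rule called 6.72% of all genes in WT D2/D0, 7.14% in KO D2/D0, 7.68% in WT D2/Prol and 8.18% in KO D2/Prol. With the limit taken as over 1.5-fold instead, *Fosl1* and *Myc* were called lower in all 4, and *Egr1* higher in WT D2/Prol only. That reading called 20.7% of all genes in WT D2/D0, 22.6% in KO D2/D0, 23.6% in WT D2/Prol and 24.9% in KO D2/Prol. The numbers of changed genes that the study gives lie nearer to this wider reading. Within each library number, *Myc* and *Fosl1* were lower at D2 than at D0 in 6 of 6 pairs. The numbers did not pair the WT D2 and D0 libraries, and the share of all genes with such a count was not taken.

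In the comparisons with Prol, 30.7% of all genes were called in WT (14.1% as lower) and 32.3% in KO (15.2% as lower, and 48.6% in all with the replicate block), again against 2 of the 10 members in each. D2/Prol shares its D2 libraries with D2/D0, so that the values of the same genotype are not independent.

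**Figure D2:**
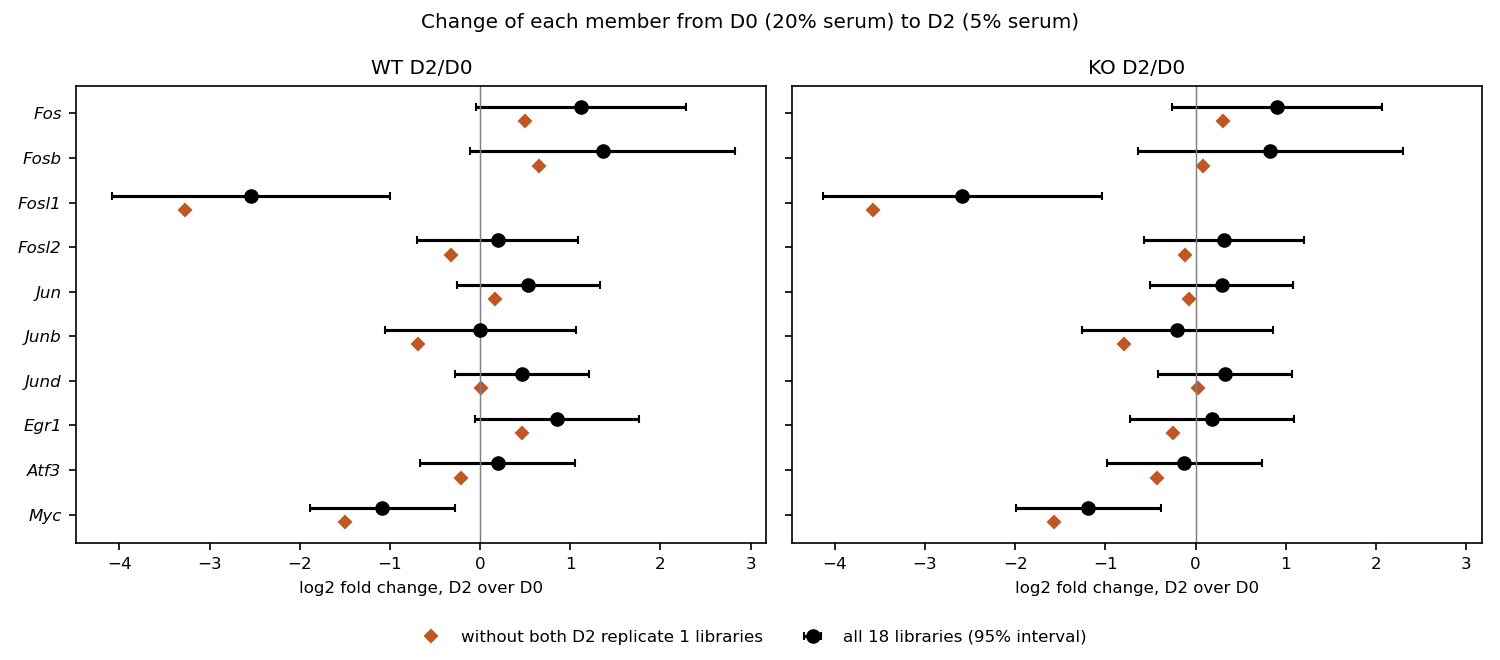
Log2 fold change of each gene from D0 to D2 in WT (left) and KO (right), with the 95% interval from all 18 libraries (black) and the value without both D2 replicate 1 libraries (orange diamonds). The interval lies below 0 for *Fosl1* (-4.09 to -0.998 in WT) and *Myc* (-1.89 to -0.28 in WT). Every diamond lies to the left of its black point, which follows from leaving out the highest D2 library of each gene.

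*Fos* (ENSMUSG00000021250, chr12:85473890-85477273, plus strand), the prototype immediate early gene, had a higher mean at D2 than in either high-serum group of its genotype, without passing the test. It was at 2.04, 2.12 and 3.73 CPM at WT Prol, at 2.80, 2.22 and 2.80 CPM at WT D0, and at 13.4, 2.75 and 4.88 CPM at WT D2. In KO it was at 1.96, 3.25 and 4.11 CPM at Prol, at 3.56, 2.87 and 3.89 CPM at D0, and at 14.6, 3.18 and 5.60 CPM at D2. Library 1 of each genotype was far above the rest at D2, and D2 library 2 lay within the D0 range. D2 exceeded D0 in 6 of 6 pairs of the same number, by 1.11 to 4.78 times. In WT the numbers did not pair the D2 and D0 libraries, and the share of all genes with such a count was not taken. In limma its log2 fold change was 1.12 ± 0.55 in WT D2/D0 (SE, limma, adjusted p = 0.151) and 0.90 ± 0.55 in KO D2/D0 (adjusted p = 0.242), with 95% intervals of -0.04 to 2.29 and -0.26 to 2.07. The D2/Prol values were 1.16 in WT (limma, adjusted p = 0.124) and 1.10 in KO (adjusted p = 0.142). Without both D2 libraries 1 it was 0.50 in WT D2/D0 and 0.31 in KO D2/D0. *Fos* passed the test where D2 library 2 was left out, at 1.64 in WT D2/D0 (limma, adjusted p = 0.0475), 1.68 in WT D2/Prol (0.0376) and 1.61 in KO D2/Prol (0.0489).

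*Fosb* (ENSMUSG00000003545, chr7:19302696-19310051, minus strand), another inducible Fos protein gene, was at 1.22 to 4.31 CPM in all Prol and D0 libraries. At D2 it was at 12.5, 2.77 and 3.08 CPM in WT and at 12.9, 2.79 and 2.63 CPM in KO. Library 1 was thus the only D2 library of either genotype above the Prol and D0 range. In D2/D0 the log2 fold change was 1.36 ± 0.69 in WT (SE, limma, adjusted p = 0.171) and 0.83 ± 0.69 in KO (adjusted p = 0.411), and 0.66 and 0.08 without both libraries 1. The D2/Prol values were 1.15 in WT and 1.07 in KO (limma, adjusted p = 0.237 and 0.267).

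Promoter sequence is shown for *Fos*, *Fosb*, *Jun* and *Junb*, inducible Fos and Jun genes whose highest D2 value lay in library 1 as for every member, as the 120 bases just before the RefSeq start (GRCm38.p6, 5′ to 3′ on the gene's strand). The capitals mark matches, on either strand, to TGACG (the core of the cAMP response element, contained in TGACGTCA), TGACATCA (the AP-1 and ATF element of *Jun*), GCGGGGGCG (an EGR element) and TATAAA.
Fos (chr12:85473770-85473889, plus strand): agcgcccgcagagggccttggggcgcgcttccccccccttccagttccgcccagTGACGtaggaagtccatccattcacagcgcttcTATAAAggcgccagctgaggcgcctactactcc
Fosb (chr7:19310046-19310165, minus strand): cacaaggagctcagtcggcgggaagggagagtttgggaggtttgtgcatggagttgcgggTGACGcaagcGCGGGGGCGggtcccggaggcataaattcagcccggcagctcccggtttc
Jun (chr4:95052223-95052342, minus strand): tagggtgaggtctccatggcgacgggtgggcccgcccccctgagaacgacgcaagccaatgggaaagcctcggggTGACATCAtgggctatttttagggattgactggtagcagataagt
Junb (chr8:84978749-84978868, minus strand): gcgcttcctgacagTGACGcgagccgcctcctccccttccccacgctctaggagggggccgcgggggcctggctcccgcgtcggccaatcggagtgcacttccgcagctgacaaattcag
In *Fos* a TGACG began 66 bases before the start and a TATAAA 33 bases before it, with a further TGACG at 129 bases, outside the part shown. *Fosb* held a TGACG at 60 and a GCGGGGGCG at 50 bases before the start, *Jun* a TGACATCA at 45, and *Junb* a TGACG at 106. A TATAAA of *Junb* began at the start itself, outside the part shown. Of the members not shown, *Fosl2* held a GCGGGGGCG at 79 bases before the start and *Atf3* a TGACG on the other strand at 7. Of the 32851 promoters in the table, each from 250 bases before to 50 after a start, 20.8% held TGACG, 3.62% TGACATCA, 2.91% GCGGGGGCG and 13.6% TATAAA. The full elements TGACGTCA (1.79% of promoters) and TGAGTCA (5.2%) and the CArG box bound by SRF (1.63%) had no match in the windows of the 7 members in the table. Sequence more than 250 bases before a start was not searched, so these genes may hold such elements further upstream. *Fosl1*, *Egr1* and *Myc* were not among these 7. A match is a run of letters only, and occupancy was not measured here.

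*Fosl2* (ENSMUSG00000029135, chr5:32135801-32157842, plus strand) encodes FRA2, the Fos protein typical of later and sustained AP-1. It was at 148.9 to 329.4 CPM in all Prol and D0 libraries. At D2 it was at 509.3, 160.9 and 188.7 CPM in WT and at 527.9, 217.0 and 213.7 CPM in KO, so that libraries 2 and 3 stayed inside the earlier range. In D2/D0 its log2 fold change was 0.19 in WT and 0.32 in KO (limma, adjusted p = 0.784 and 0.622), with 95% intervals of -0.70 to 1.09 and -0.58 to 1.21. Its sign turned without both D2 libraries 1, to -0.32 and -0.12. D2/Prol was -0.06 in WT and 0.08 in KO.

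Levels of different genes were compared as CPM per kb of exon. The length was the union of all annotated exons of a gene (9680 bases for *Fosl2*, 2033 for *Fosl1*), not that of the transcripts expressed. Shares and orders between genes depend on this divisor, and in CPM *Fosl2* (262.8) lay above *Fosl1* (94.2) at WT Prol. At Prol, *Fosl1* made up 61.3% ± 4.3 of the summed Fos family in WT and 63.2% ± 2.5 in KO (SD, n = 3), and *Fosl2* 36.7% ± 4.7 and 34.7% ± 2.2. At D0 *Fosl1* made up 53.7% ± 17.6 in WT and 59.2% ± 8.9 in KO. At D2 it made up 14.5% ± 3.1 in WT and 17.6% ± 10.3 in KO, and *Fosl2* 76.1% ± 4.2 and 73.8% ± 11.5. The *Fosl1* share did not overlap between D0 and D2 in either genotype (34.8 to 69.5% against 12.6 to 18.1% in WT, and 52.6 to 69.3% against 8.19 to 28.6% in KO). *Fos* and *Fosb* together remained minor, with *Fos* at 1.49% at WT Prol and 7.18% at WT D2 and *Fosb* at 0.48% and 2.27%. Per kb, *Fosl2* stood at 0.60 ± 0.12 times *Fosl1* at WT Prol and at 5.45 ± 1.30 times at WT D2, and in KO at 0.55 ± 0.06 and 5.74 ± 4.21 times. No test was run on these shares.

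**Figure D3:**
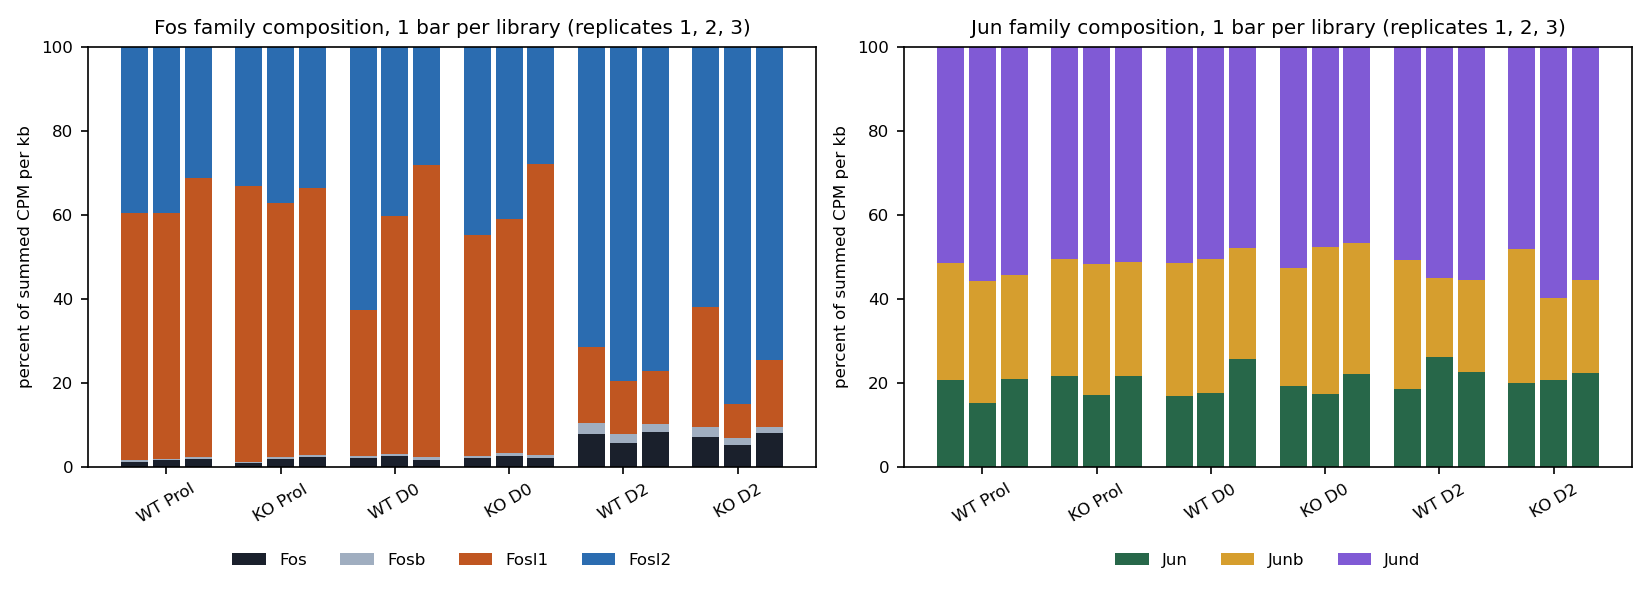
Share of each gene in the summed level of the Fos family (left) and the Jun family (right), in percent of CPM per kb of exon, with 1 bar per library in the order of replicates 1, 2 and 3. *Fosl1* makes up 34.8 to 69.5% of the Fos family in the Prol and D0 libraries and 8.19 to 28.6% at D2, while *Jund* makes up 46.7 to 59.8% of the Jun family throughout.

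Of the Jun genes, none passed the test between D2 and D0 or Prol with all libraries. *Jun* (ENSMUSG00000052684, chr4:95049034-95052222, minus strand), the strongest activator of the family, was at 46.9 to 93.8 CPM at Prol and D0. At D2 it was at 162.3, 80.2 and 70.2 CPM in WT and at 143.9, 62.8 and 74.3 CPM in KO, with libraries 2 and 3 inside the earlier range. Its log2 fold change of D2/D0 was 0.54 in WT and 0.29 in KO (limma, adjusted p = 0.331 and 0.613), with 95% intervals of -0.26 to 1.33 and -0.51 to 1.08. Without both libraries 1 it was 0.16 and -0.07. D2/Prol was 0.36 in WT and 0.14 in KO.

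*Junb* (ENSMUSG00000052837, chr8:84974484-84978718, minus strand), which restrains *Jun*-driven proliferation in many cells, was split between the libraries at D2. It was at 89.4, 71.1 and 75.4 CPM at WT Prol, at 102.4, 61.6 and 62.7 CPM at WT D0, and at 192.5, 42.2 and 49.0 CPM at WT D2. KO libraries held 87.0, 85.4 and 74.1 CPM at Prol, 98.1, 73.9 and 79.7 CPM at D0, and 165.4, 43.3 and 52.9 CPM at D2. At D2 library 1 of each genotype was above, and libraries 2 and 3 were below, every Prol and D0 library. The log2 fold change of D2/D0 was 0.00 ± 0.50 in WT and -0.20 ± 0.50 in KO (SE, limma, adjusted p = 0.997 and 0.803), with 95% intervals of -1.06 to 1.07 and -1.26 to 0.86. Without both libraries 1 *Junb* passed the test as lower, at -0.69 in WT D2/D0 (limma, adjusted p = 0.0329), -0.80 in KO D2/D0 (0.0152), -0.78 in WT D2/Prol (0.0146) and -0.78 in KO D2/Prol (0.0149). The libraries left out were the highest for *Junb*, so these calls describe libraries 2 and 3 only. With all libraries it was -0.09 in WT D2/Prol and -0.18 in KO D2/Prol. In that setting 3 members, *Fosl1*, *Myc* and *Junb*, were thus called lower in all 4 comparisons and none higher, beside the 13.3 to 17.3% of all genes called lower there.

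*Jund* (ENSMUSG00000071076, chr8:70698949-70700616, plus strand), the least serum-dependent Jun gene, was at 70.5 to 132.4 CPM at Prol and D0. At D2 it was at 231.4, 88.4 and 90.3 CPM in WT and at 180.4, 95.6 and 96.0 CPM in KO. Each D2 library exceeded the D0 library of its number, in 6 of 6 pairs and by 1.09 to 1.92 times, although the groups overlapped. As for *Fos*, the numbers did not pair the WT libraries and the share of all genes was not taken. In limma the D2/D0 change was 0.46 in WT and 0.33 in KO (limma, adjusted p = 0.370 and 0.526), and 0.01 and 0.03 without both libraries 1. Against Prol it was 0.12 in WT and 0.16 in KO.

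By group mean, *Jund* was the most abundant of the 10 per kb in all 6 groups. In D0 library 3 of each genotype it lay below *Myc* and *Fosl1*. It was at 49.7 against 56.0 and 53.7 CPM per kb in WT and at 51.9 against 64.7 and 56.2 in KO. At WT Prol it was at 67.8 ± 7.1 CPM per kb, followed by *Myc* (52.1 ± 13.4), *Fosl1* (46.3 ± 13.1), *Junb* (34.2 ± 4.2), *Fosl2* (27.1 ± 4.5) and *Jun* (24.4 ± 7.0), each of which overlapped with its neighbour in this order. *Egr1* (13.8 ± 0.2), *Atf3* (2.66 ± 1.31), *Fos* (1.12 ± 0.41) and *Fosb* (0.375 ± 0.191) came last, of which only *Atf3* and *Fos* overlapped. At WT D2 the order was *Jund* (82.0 ± 49.2), *Junb* (41.1), *Jun* (32.7), *Egr1* (31.7), *Fosl2* (29.6) and *Myc* (23.0), whose ranges all overlapped with their neighbours. *Fosl1* (6.38 ± 6.01) lay apart below *Myc* and overlapped with *Atf3* (3.63) and *Fos* (2.98), and *Fosb* (0.981) came last, below every *Fosl1* library. The mean of WT D2 libraries 2 and 3 alone gave the order *Jund* (53.6), *Jun* (23.6), *Egr1* (22.8), *Junb* (19.8), *Fosl2* (18.1), *Myc* (15.9), *Fosl1* (2.92), *Atf3* (2.54), *Fos* (1.62) and *Fosb* (0.469), so that the second place of *Junb* rested on library 1. In KO *Jund*, *Myc* and *Fosl1* also led at Prol (63.7, 56.5 and 52.3 CPM per kb).

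*Egr1* (ENSMUSG00000038418), a zinc finger factor induced by ERK signalling through SRF, was the member nearest to the threshold after *Fosl1* and *Myc* in WT D2/Prol only. It was at 62.8, 62.4 and 61.0 CPM at WT Prol, at 101.9, 74.0 and 49.4 CPM at WT D0, and at 222.1, 78.2 and 126.2 CPM at WT D2. KO libraries held 65.6, 101.2 and 70.7 CPM at Prol, 124.9, 119.8 and 58.0 CPM at D0, and 194.7, 62.2 and 104.1 CPM at D2. In WT every D2 library lay above every Prol library, as for 23% of all genes in that direction, whereas the KO groups overlapped. The log2 fold change of WT D2/Prol was 1.07 ± 0.43 (SE, limma, unadjusted p = 0.0247, adjusted p = 0.0723), and of KO D2/Prol 0.48 ± 0.43 (adjusted p = 0.445). *Egr1* passed the test in WT D2/Prol with library totals as the only scaling, and without WT D2 library 2 (limma, adjusted p = 0.0286) or KO D2 library 1 (0.0447). Without both D2 libraries 1 the value was 0.68 in WT D2/Prol (limma, adjusted p = 0.175). For D2/D0 it was 0.85 in WT and 0.18 in KO (limma, adjusted p = 0.166 and 0.795), and without both libraries 1 it was 0.47 and -0.25.

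*Atf3* (ENSMUSG00000026628, chr1:191170296-191218039, minus strand), a stress-induced ATF protein that pairs with Jun proteins, was at 3.39 to 8.86 CPM at Prol and D0. At D2 it was at 12.5, 5.94 and 4.99 CPM in WT and at 9.05, 4.50 and 5.23 CPM in KO, so that library 1 of each genotype lay above the earlier range. The log2 fold change of D2/D0 was 0.19 in WT and -0.12 in KO (limma, adjusted p = 0.778 and 0.854), and against Prol 0.44 and 0.18. Without both libraries 1 D2/D0 was -0.21 in WT and -0.42 in KO.

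Between D0 and Prol, both in 20% serum, none of the 10 genes passed the test in limma, and none had an unadjusted p under 0.05, with or without voom weights. Over all genes 1 was called in WT (0.00566%) and 0 in KO (0%), while an unadjusted p under 0.05 was found in 2.17% of genes in WT and 1.12% in KO. The smallest p among the members belonged to *Jund* in WT (log2 fold change -0.34, unadjusted p = 0.345 in limma) and to *Atf3* in KO (0.31, unadjusted p = 0.462). *Fosl1* was at -0.68 in WT and -0.44 in KO, with 95% intervals of -2.23 to 0.86 and -1.98 to 1.10, so that a change of this size was not detectable with 3 libraries a group.

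The KO against WT comparison addressed whether loss of LAP2α, a nucleoplasmic partner of lamin A/C, changed these genes. None of the 10 passed the test in limma at Prol, D0 or D2, none had an unadjusted p under 0.05, and voom weights gave the same counts. Over all genes 1 was called at Prol (0.00566%) and 0 at D0 and D2 (0% each), with 1.11%, 1.47% and 1.96% at an unadjusted p under 0.05. At Prol the smallest was that of *Egr1* (log2 fold change 0.32, 95% interval -0.59 to 1.24, unadjusted p = 0.461 in limma). At D0 it was again that of *Egr1* (0.41, 95% interval -0.50 to 1.32, unadjusted p = 0.358 in limma). At D2 it was that of *Atf3* (-0.27, 95% interval -1.13 to 0.60, unadjusted p = 0.518 in limma). The groups did not overlap for *Egr1* at Prol, where all KO libraries were higher, and for *Fos* at D0, where KO held 2.87 to 3.89 CPM and WT 2.22 to 2.80 CPM. These were 1 of 10 members each, beside 1.85% of all genes at Prol and 1.11% at D0 in that direction. Over the 9 pairs of the same day and number, KO exceeded WT in 8 for *Fos*, in 7 for *Fosb*, *Fosl1*, *Fosl2* and *Myc*, in 6 for *Jund* and *Egr1*, and in 5 for *Jun*, *Junb* and *Atf3*. The share of all genes with such counts was not taken. The 10 members come from the same libraries and scaling, so these counts are not independent and are given as a description only.

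None of the 10 genes passed the interaction test of a difference between the genotypes in the change from D0 to D2, at an adjusted or an unadjusted p under 0.05 in limma. Over all genes 0 were called (0%), and 1.78% had an unadjusted p under 0.05. The smallest p was that of *Egr1*, whose D2/D0 value in KO minus that in WT was -0.67 (95% interval -1.96 to 0.62, unadjusted p = 0.285 in limma). For *Fosl1* the difference was -0.04 with an interval of -2.23 to 2.14, and for *Myc* -0.10 with an interval of -1.24 to 1.03.

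Related genes were described from lists of the same pathway, all for D2/D0 and beside a median log2 fold change over all genes of 0.00 in WT and 0.06 in KO. The counts of each list stand beside 14.7% of all genes called higher and 11.3% lower in WT, and 15.3% and 12.9% in KO. Of 23 other immediate early genes tested, 2 were higher and 1 lower in WT, and 1 was higher and 1 lower in KO (3 and 2 with the replicate block), with list medians of 0.22 and 0.16. *Egr3* and *Egr2*, relatives of *Egr1*, rose in WT by 1.86 and 1.80 on the log2 scale (limma, adjusted p = 0.0170 and 0.0397) and were at 0.78 and 1.34 in KO (adjusted p = 0.305 and 0.116). *Ier5* fell by 0.91 in WT and by 0.79 in KO (limma, adjusted p = 0.0169 and 0.0332). Without both D2 libraries 1 the list held 1 higher and 8 lower genes in WT and 2 higher and 9 lower in KO. The medians were -0.37 in both, where 13.3% and 14.3% of all genes were called lower. That setting was chosen after seeing library 1 high in the members, which are genes of the same kind. These counts are therefore a description and not a test of the list.

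Of 12 ERK feedback genes, 2 were higher and 2 lower in each genotype, and without both D2 libraries 1 the counts were 3 and 3 in WT and 2 and 4 in KO. *Spry1* and *Spry4*, inhibitors of growth factor signalling, rose by 3.28 and 2.50 in WT and by 2.64 and 1.41 in KO (limma, adjusted p of at most 0.0276). *Etv4*, an ETS factor induced by ERK, fell by 2.16 in WT and by 2.26 in KO, and *Dusp5*, a nuclear ERK phosphatase, by 2.04 and 2.03 (limma, adjusted p of at most 0.0398). Of 21 genes of the serum response and MAP kinase machinery, 1 was higher and 2 were lower in WT and 1 higher and 5 lower in KO, and without both D2 libraries 1 the WT counts were 2 and 5. *Elk1*, the SRF partner, rose by 1.01 in WT and by 0.97 in KO, while the kinase gene *Rps6ka1* fell by 0.91 and 0.99 and *Nras* by 0.61 and 0.71 (limma, adjusted p of at most 0.0184). Of 10 other AP-1 and bZIP partners, 2 were higher and 0 lower in WT (with 5 at an unadjusted p under 0.05) and 2 higher and 2 lower in KO, which became 1 and 1 in WT and 2 and 1 in KO without both D2 libraries 1. Among the higher was *Maf*, a large Maf gene, up by 1.67 in WT and 1.54 in KO (limma, adjusted p of at most 0.0015).

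Of 15 AP-1 target genes tested, 4 were higher and 4 lower in WT and 3 higher and 4 lower in KO (4 and 7 with the replicate block), with medians of -0.63 and -0.66. Leaving out both D2 libraries 1 gave counts of 4 and 8 in WT and 2 and 8 in KO, beside the same shares of all genes. *Hmga1*, a chromatin architecture gene, fell by 2.60 in WT and by 2.46 in KO, and *Ccnd1*, the cyclin D1 gene, by 2.34 and 2.21 (limma, adjusted p of at most 0.0013). *Mmp9*, a gelatinase gene, rose by 2.75 in WT (limma, adjusted p = 0.0056) and was at 1.62 in KO (adjusted p = 0.0763). Its WT rise was 1.81 without both D2 libraries 1. *Mmp3*, the stromelysin gene, was called higher in both genotypes but had only 2 expected counts in all WT D0 libraries together against 183.3 at WT D2, so its fitted fold depends on the count added to 0 and is not given.

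Most of the Myc target genes fell. Of 12 Myc target genes 0 were higher and 9 lower in WT, and 0 were higher and 10 lower in KO, with medians of -1.49 and -1.58. Of all genes 11.3% were called lower in WT and 12.9% in KO. *Odc1*, of polyamine synthesis, fell by 1.82 in WT and by 1.92 in KO, and *Ldha*, of glycolysis, by 1.77 and 2.01 (limma, adjusted p of at most 0.00027). Without both D2 libraries 1, 11 of the 12 were lower in each genotype. Of 8 genes of the Myc network, 3 were higher and 1 lower in each genotype, and 3 and 0 in WT and 3 and 1 in KO without both D2 libraries 1. *Mycl*, a relative of *Myc*, rose by 2.56 in WT and by 2.39 in KO, and *Mxd4*, an antagonist of Myc at MAX, by 2.26 and 2.01 (limma, adjusted p of at most 0.0029). *Mxd3*, another antagonist that is typical of dividing cells, fell by 1.82 and 2.38 (limma, adjusted p of at most 0.0413).

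Of the 20 list genes named with a WT D2/D0 call, 13 kept it without any 1 library. The exceptions were *Egr2*, *Egr3* and *Mxd3*, with limma adjusted p of up to 0.146, 0.0817 and 0.180, each without WT D2 library 1, and *Dusp5*, with up to 0.169 without WT D2 library 2. They were also *Ier5* (up to 0.0842 without WT D2 library 3), *Nras* (up to 0.0995 without WT D0 library 3) and *Rps6ka1* (up to 0.0697 without WT D0 library 1). Of the 20 WT calls 18, and of 17 KO calls 16, were kept without both D2 libraries 1. The calls lost there were those of *Egr2* and *Mxd3* in WT (1.36 and -0.87, limma, adjusted p = 0.0821 and 0.0905) and of *Spry4* in KO (0.94, adjusted p = 0.0804). In KO D2/D0 calls were lost by *Spry4* (limma, adjusted p of up to 0.132, without KO D2 library 1), *Dusp5* and *Ier5* (up to 0.174 and 0.149, both without KO D2 library 2) and *Rps6ka1* (0.0509 without KO D0 library 1). *Egr2* gained a call in KO without KO D2 library 2 (limma, adjusted p = 0.0247), and *Mmp9* without WT D2 library 1 (0.0154).

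**Figure D4:**
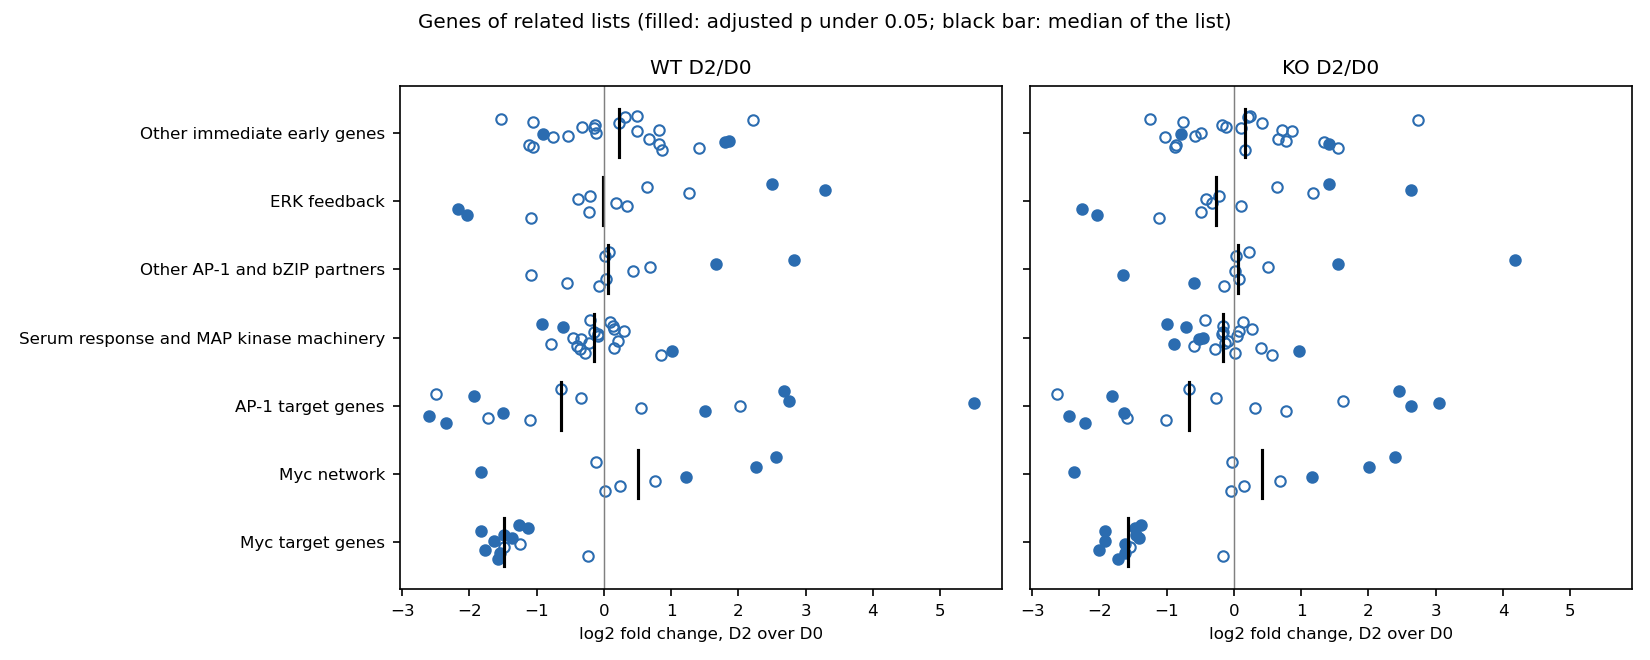
Log2 fold change from D0 to D2 of every tested gene of the related lists in WT (left) and KO (right), with filled points for a Benjamini-Hochberg adjusted p under 0.05 in limma and a black bar at each list's median. The Myc target genes lie to the left of 0, with medians of -1.49 in WT and -1.58 in KO, and the other lists spread to both sides.

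The genes whose log2 levels followed a member most closely over the 18 libraries were sought among 10749 genes with at least 10 CPM in 1 library, as a description. For *Fosl1* they were *Lsm11*, *Plaur* and *Nbn* (Pearson r = 0.988, 0.986 and 0.985), of which *Plaur*, the urokinase receptor gene, was at 80.3 CPM at WT Prol and 21.4 CPM at WT D2. For *Myc* they included *Plekha3* and *Ctps* (r = 0.982 and 0.981), of which *Ctps*, the gene of a CTP synthase, was at 222.9 CPM at WT Prol and 99.8 CPM at WT D2. For *Fos* they were *Rictor*, *Ccn4* and *Hivep2* (r = 0.925, 0.916 and 0.906), and *Hivep2* was at 14.1 CPM at WT Prol and 52.3 CPM at WT D2. The libraries share the scaling and the differences between groups, which enter every r.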

How the data were processed

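PolyA RNA of 18 libraries was sequenced as strand-specific single-end reads. The authors trimmed reads with cutadapt, mapped them to the mouse GRCm38 transcriptome, estimated expected counts per gene with RSEM, and scaled them by edgeR's TMM factors (0.909 to 1.18). The deposited values are CPM on the linear scale, as (expected count + 0.5) over the scaled total, from which expected counts were recovered. The 10 members and the lists were chosen with earlier results of these data known. The named list genes were the largest calls in each direction of WT D2/D0, at most 2 each. Some genes that the rules select are not reported here.

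The log2 values were tested with limma 3.58.1 (lmFit, eBayes with trend, R 4.3.3) in a model of 6 groups, over the 17672 genes whose expected count exceeded 5 in each of the 3 libraries of some group. All 10 members passed this filter. The lane block that the study used was not in the labels. Exon lengths are unions of GENCODE exons, and promoters are from RefSeq. Same-numbered libraries deviated together (every r over 0.1) except in WT D2/D0 (r from 0.010 to 0.470) and WT D2/Prol (from 0.0393 to 0.404). The number was therefore used as a block for the other comparisons, beside the fit without it. In that fit the effect of the number was shared by all 6 groups, the WT D2 libraries included. On simulated data for WT D2/D0, 100 of 17672 genes were changed 2-fold and 100 others 4-fold, and the test recovered 27 and 73 of them. In the data 26% of all genes were called, so that the cutoff on the adjusted p was stricter in the simulation. Alternatives were other scalings, filters, weights, a pseudocount, the blocks, the compared groups alone, and leaving out libraries.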

Additional observations from a re-analysis of the deposited data

How the results depend on the processing

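*Fosl1* and *Myc* were called lower in all 4 comparisons with D2 under voom weights, library totals alone, other filters, a pseudocount of 1 CPM, both block fits, and a rule of an unadjusted p with over 1.5-fold change. The study's stated limit, an absolute log2 fold change over 1.5, left 1 member called in each of them (*Fosl1*), since the values of *Myc* lay nearer to 0; this rule was added after seeing the data. Median-of-ratios scaling left 1 member called in WT D2/D0 (*Fosl1*), and fitting only the groups compared left 1 in WT D2/D0 and 1 in KO D2/D0 (*Fosl1* in both), and the cause was not tested. Leaving out 1 library gave 0 to 2 called members in WT D2/D0, 0 to 2 in KO D2/D0, 1 to 3 in WT D2/Prol and 2 in KO D2/Prol, and 0 in the comparisons of D0 with Prol and of KO with WT. With the replicate block 43.2% of all genes were called in WT D2/D0 and 47.7% in WT D2/Prol, where the numbers did not pair the samples. The block added a call of *Egr1*, higher in WT D2/Prol (1.07, limma adjusted p = 0.0221), and changed no other member call.

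Of 86 log2 fold changes of named genes, 68 never changed sign. The following did, all of them not called with all libraries, when 1 library was left out. In WT D2/D0 the log2 fold changes ran from -0.32 to 0.51 for *Fosl2*, -0.69 to 0.40 for *Junb* and -0.21 to 0.46 for *Atf3*. In KO D2/D0 the log2 fold changes ran from -0.12 to 0.54 for *Fosl2*, -0.070 to 0.53 for *Jun*, -0.80 to 0.17 for *Junb*, -0.25 to 0.58 for *Egr1* and -0.42 to 0.081 for *Atf3*. In WT D2/Prol the log2 fold changes ran from -0.58 to 0.25 for *Fosl2*, -0.0067 to 0.60 for *Jun*, -0.78 to 0.31 for *Junb* and -0.33 to 0.36 for *Jund*. In KO D2/Prol the log2 fold changes ran from -0.35 to 0.30 for *Fosl2*, -0.22 to 0.38 for *Jun*, -0.78 to 0.19 for *Junb*, -0.15 to 0.31 for *Jund* and -0.12 to 0.49 for *Atf3*. In KO/WT D2 the log2 fold changes ran from -0.57 to 0.13 for *Atf3*. With both D2 libraries 1 left out the sign turned, in WT D2/D0 to -0.32 for *Fosl2*, -0.69 for *Junb* and -0.21 for *Atf3*, in KO D2/D0 to -0.12 for *Fosl2*, -0.070 for *Jun* and -0.25 for *Egr1*, in WT D2/Prol to -0.0067 for *Jun* and -0.33 for *Jund*, and in KO D2/Prol to -0.35 for *Fosl2*, -0.22 for *Jun*, -0.15 for *Jund* and -0.12 for *Atf3*. With library totals alone, *Fosl2* in WT D2/Prol turned to 0.10 and *Junb* to 0.073, and the median of all genes shifted to 0.13 to 0.17 in the 4 comparisons with D2. In the simulated data most changes of 2-fold were not recovered, but far fewer genes were changed there than were called in WT D2/D0. The simulated share is therefore not carried over to these data.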
